A study of Mus musculus with 9 samples.

Results

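Retinol (vitamin A) uptake, its conversion to retinoic acid and the retinoic acid receptors were followed through 9 genes, Stra6, Rbp4, Crabp2, Dhrs3, Aldh1a1, Cyp26b1, Rara, Rarb and Rarg. They were picked by name, with their values in these same libraries already known, and are 9 of the 11931 genes of the deposited table. Levels and differences of the 9 genes are therefore given as descriptions, without a p-value. Mammary fibroblasts came from the fat pads of female BALB/c mice aged 12 weeks, were given 1 week of recovery on collagen, and were plated alone or under 4T1-GFP cells. 4T1 is a mammary carcinoma line of BALB/c origin, here marked with green fluorescent protein (GFP). The groups were fibroblasts alone for 5 days (monoculture), with 4T1-GFP cells for 3 days and with 4T1-GFP cells for 5 days, with 3 libraries in each. Every group, the monoculture included, was sorted for cells without GFP and with podoplanin (PDPN), a surface glycoprotein of fibroblasts. No 3-day monoculture is among the samples, so the presence of carcinoma cells and the time in culture cannot be told apart in the comparison of 3-day co-culture with monoculture. The labels do not say that replicates were separate cultures or animals, so p-values measure only the spread between these samples.

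Retinol travels in plasma bound to retinol-binding protein (Rbp4), and the membrane receptor encoded by Stra6 takes it into cells. Inside the cell, retinol is oxidised first to retinal and then, by retinaldehyde dehydrogenases such as Aldh1a1, to retinoic acid, while Dhrs3 reduces retinal back to retinol and Cyp26b1 breaks retinoic acid down. Crabp2 carries retinoic acid to the nucleus, where the receptors Rara, Rarb and Rarg act as heterodimers with retinoid X receptors, and the promoter of Rarb holds a well-known retinoic acid response element.

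The Rarb promoter is shown because Rarb was the receptor whose level differed most between the groups and is itself a classical retinoic acid target. Its 250 bases before the start, from RefSeq on GRCm38.p6, lie at chr14:16575477-16575726 on the minus strand. The capitals mark the 17 bases of a direct repeat, 2 hexamers with 5 bases between them.
Rarb promoter: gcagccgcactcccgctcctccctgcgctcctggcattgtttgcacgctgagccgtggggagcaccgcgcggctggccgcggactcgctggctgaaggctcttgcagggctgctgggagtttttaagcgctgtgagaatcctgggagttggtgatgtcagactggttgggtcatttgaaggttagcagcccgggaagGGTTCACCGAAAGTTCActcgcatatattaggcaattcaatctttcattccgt
The repeat lies at chr14:16575513-16575529, from 53 to 37 bases before the start. A search of both strands for any 2 of 4 hexamers in the same direction, 5 bases apart, where a hexamer was AGGTCA or its variant AGTTCA, the form GGGTCA or else the form GGTTCA, matched 32 of 32851 promoter windows of 300 bases in mouse (0.0974%). Among the 19 windows of the 8 genes with a RefSeq promoter (Crabp2 had none in the table), it matched only that 1 of Rarb. A match is a description of the letters. The 3′ end reads do not tell which start was used.

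The libraries held between 1048471 and 3567326 recovered reads. Group means were 2966627 in monoculture, 1632228 at 3 days and 1806567 at 5 days. The values are normalised read counts, so depth limits the low ones more than the high ones. In bulk samples, fewer cells of a type and less RNA per cell cannot be told apart. Epithelial markers were higher in both co-culture groups. Their summed level lay between 56.1 and 85.9 in the monocultures, 1152.9 and 1320.3 at 3 days and 1118.7 and 1564.1 at 5 days. Of 15 tested markers, 14 passed the limma test as higher at each time, where 10.6% and 12.6% of all tested genes did. Cldn3, Elf3 and Grhl2, markers of epithelium, were at 0 in all 3 monocultures. In co-culture they were above 0 in every library except that Elf3 was at 0 in 3-day replicate 3. A column used here as 5-day replicate 2 does not mention 4T1 in its name and was assigned by elimination. Its epithelial sum, 1118.7, was the lowest of the co-cultures, where the others lay between 1152.9 and 1564.1.

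Among the 9 genes, Stra6, Crabp2 and Rarb were higher in the co-cultures, Rbp4 and Aldh1a1 were lower, and Dhrs3, Cyp26b1, Rara and Rarg overlapped with the monocultures. By limma at an adjusted p threshold of 0.05, 5 of the 9 passed at 3 days, where 20.0% of all 10639 tested genes passed: 3 were higher (10.6% of all genes) and 2 lower (9.37%). The same 5 passed at 5 days, against 24.0% of all genes (12.6% higher and 11.4% lower). Between 5 and 3 days of co-culture 2 of the 9 passed (Stra6 higher and Aldh1a1 lower), against 6.91% of all genes (3.20% higher and 3.71% lower). That count was 1 without monoculture replicate 2 or 3, 3-day replicate 2, or 5-day replicate 1 or 3. Groups did not overlap for 5, 5 and 4 of the 9 genes in these comparisons, against 37.4%, 40.9% and 24.6% of all genes. Nothing is read from these counts, since the genes were chosen on these values. All 9 passed the filter on low values (3 or more libraries at 5 or higher), but Stra6 did so only through its co-culture libraries, and Rarb had 1 monoculture library at 5 or higher. Both comparisons with monoculture share the same 3 monoculture libraries. Across all tested genes the median absolute difference was 0.41 at 3 days, 0.43 at 5 days and 0.33 between the days, on the scale of log2(value + 1) used for every difference here.

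**Figure D1:**
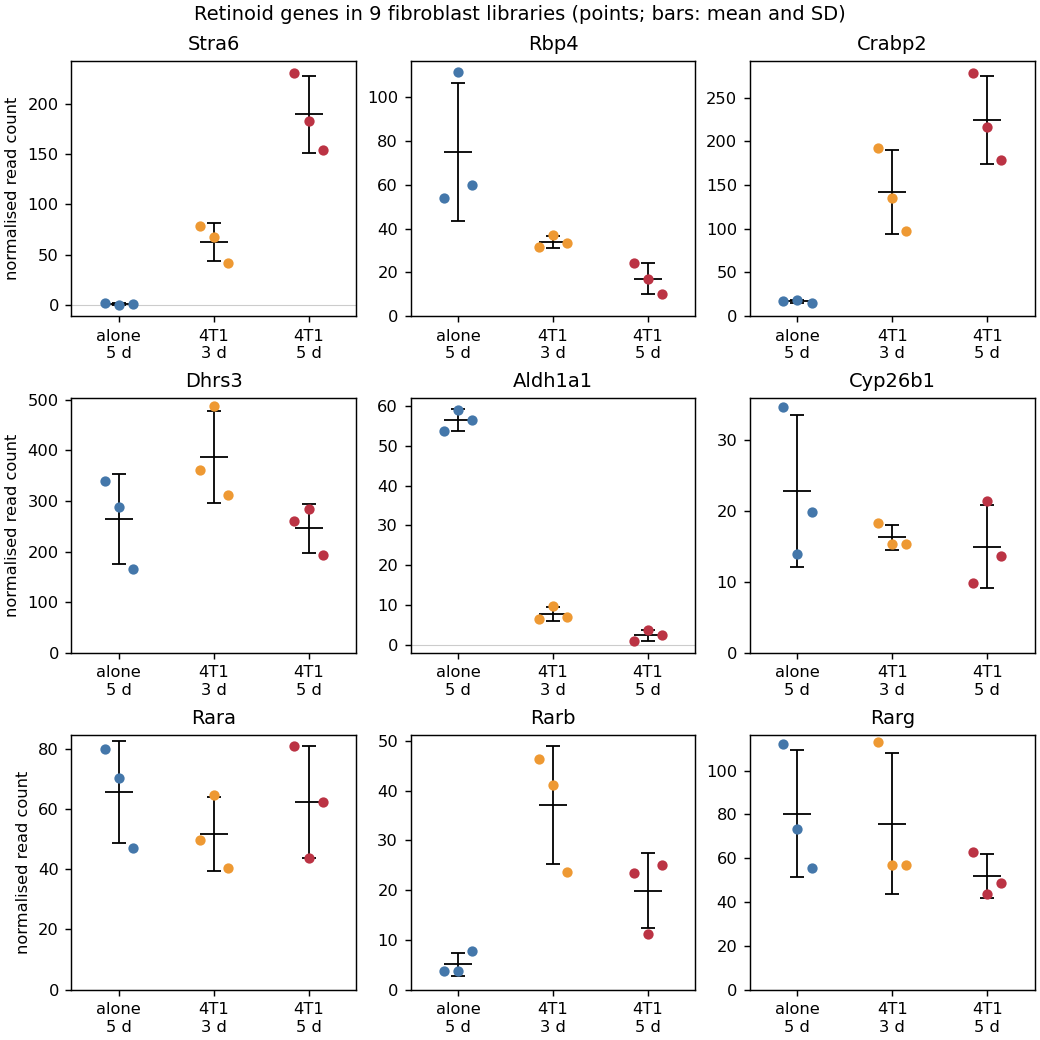
Normalised read counts of the 9 retinoid genes in each of the 9 libraries (points), with the mean and SD of each group of 3 (bars), on linear axes. Stra6, Crabp2 and Rarb were higher in every co-culture library than in any monoculture, Rbp4 and Aldh1a1 were lower in every one, and the monoculture range of the other 4 genes overlapped with both co-culture groups.

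Stra6, the retinol uptake receptor (chromosome 9, 58063788 to 58153996, plus strand), was nearly absent from the monocultures. Its normalised counts were 1.2, 0 and 0.6 in monoculture, 78, 67.5 and 41.7 at 3 days, and 231.8, 183.5 and 154.8 at 5 days. The 3 groups did not overlap and stood in the order monoculture, 3 days, 5 days from low to high. The monocultures held 3 reads in all, against 174 at 3 days and 579 at 5 days. Scaled by what a read is worth, the level was 110.5 times that of monoculture at 3 days (exact Clopper-Pearson 95% interval 37.2 to 540.9) and 339.3 times at 5 days (115.5 to 1650.0); the intervals cover counting error only. Stra6 overlaps Ccdc33 on the opposite strand, which was not analysed here. The log2 differences were 5.33 ± 0.34 (SE) at 3 days and 6.95 ± 0.34 at 5 days, and they understate the change of a gene so close to 0. Between the days the mean was 3.05 times as high, 62.4 ± 18.7 against 190.0 ± 38.9 (SD, n = 3), a difference of 1.62 ± 0.34 that lay between 1.36 and 1.80 with each library left out in turn.

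Rbp4, the retinol carrier that Stra6 binds (chromosome 19, 38116629 to 38125281, minus strand), had the opposite pattern. It measured 53.8, 111.5 and 59.8 in monoculture, 31.6, 36.9 and 33.4 at 3 days, and 24.3, 16.8 and 10 at 5 days. Each group lay below the one before without overlap, and monoculture replicate 2 was the highest of all. Means were 75.03 ± 31.7, 33.97 ± 2.7 and 17.03 ± 7.15 (SD, n = 3), so the level was 2.21-fold lower at 3 days and 4.41-fold lower at 5 days. The log2 differences were -1.05 ± 0.33 and -2.08 ± 0.33 (SE). With each library left out in turn they lay between -1.24 and -0.73 at 3 days, the latter without monoculture replicate 2, and between -2.37 and -1.76 at 5 days.

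Crabp2, the carrier that delivers retinoic acid to its receptors (chromosome 3, 87948666 to 87953376, plus strand), was uniformly low in monoculture, at 16.7, 18.7 and 15.4. The co-cultures gave 192.6, 135 and 97.4 at 3 days and 278.5, 216.1 and 178.5 at 5 days. Both co-culture groups stood clear of the monocultures but overlapped with each other. Mean levels of 16.93 ± 1.66, 141.7 ± 47.9 and 224.4 ± 50.5 (SD, n = 3) were 8.37 times and 13.2 times that of monoculture at 3 and 5 days, with log2 differences of 2.94 ± 0.25 and 3.63 ± 0.25 (SE). The difference between the days was 0.69 ± 0.25, and it lay between 0.45 (without 3-day replicate 3) and 0.94 (without 3-day replicate 1) with each library left out in turn.

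Stra6 and Crabp2 were both lowest, within each co-culture group, in the library with the highest epithelial sum. That was replicate 3 at both times, with sums of 1320.3 and 1564.1, Stra6 at 41.7 and 154.8 and Crabp2 at 97.4 and 178.5. This rests on 1 library per group, and Rarb was lowest in it at 3 days (23.7) but highest at 5 days (25). Replicates 1 and 2 went the other way. The sum was higher in replicate 1 than in replicate 2 at 3 days (1258.6 and 1152.9) and at 5 days (1276.9 and 1118.7). Stra6 (78 and 67.5, then 231.8 and 183.5) and Crabp2 (192.6 and 135, then 278.5 and 216.1) were higher in it too. Divided by the epithelial sum, Stra6 lay between 0.0316 and 0.062 at 3 days and between 0.099 and 0.182 at 5 days, without overlap. The same quotient of Crabp2 lay between 0.0738 and 0.153 and between 0.114 and 0.218. For Rarb it lay between 0.018 and 0.0369 at 3 days and between 0.01 and 0.0183 at 5 days. Genes of the sum moved in both directions between the days. Lcn2 (269.0 to 101.0, limma adjusted p = 0.015) and Krt14 were lower at 5 days without overlap. Krt8, Krt19 and Wfdc2 were higher without overlap, and of these genes only Lcn2 passed. The sum is therefore not a fixed base for quotients between the days. Lcn2, Krt14, Krt8 and Krt19 were named after their values were seen. The part of epithelial RNA in these levels was not tested.

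**Figure D2:**
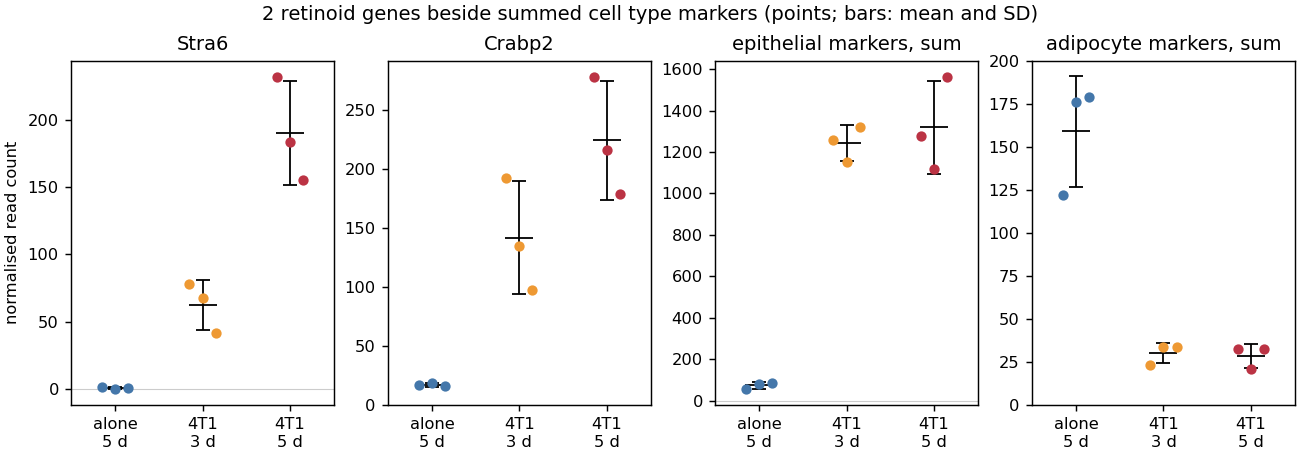
Normalised read counts of Stra6 and Crabp2 and summed counts of the epithelial and adipocyte markers in each of the 9 libraries (points), with the mean and SD of each group of 3 (bars), on linear axes. The epithelial sum was at most 85.9 in monoculture and at least 1118.7 in co-culture, whereas the adipocyte sum was at least 122.0 in monoculture and at most 33.4 in co-culture.

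Dhrs3, which turns retinal back into retinol (chromosome 4, 144892827 to 144928209, plus strand), overlapped with monoculture at both times. Its counts were 339.8, 287 and 165.2 in monoculture, 360.3, 487.3 and 311.6 at 3 days, and 260.6, 284.1 and 192.3 at 5 days. The 3-day and 5-day libraries did not overlap, and the monocultures spread across both. Means were 264.0 ± 89.5, 386.4 ± 90.7 and 245.7 ± 47.7 (SD, n = 3). The log2 differences were 0.59 ± 0.25 at 3 days (95% interval 0.05 to 1.12), -0.06 ± 0.25 at 5 days (-0.60 to 0.48) and -0.65 ± 0.25 between the days (-1.18 to -0.11). With each library left out in turn, the 3-day difference lay between 0.28 (without monoculture replicate 3) and 0.80 (without monoculture replicate 1), and the 5-day difference took either sign.

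Aldh1a1, a retinaldehyde dehydrogenase that makes retinoic acid (chromosome 19, 20492715 to 20643465, plus strand), was even in monoculture, at 53.8, 59.1 and 56.6. It measured 6.6, 9.7 and 7 at 3 days and 0.9, 3.7 and 2.5 at 5 days. The 3 groups did not overlap, in the order monoculture, 3 days, 5 days from high to low. Means of 56.5 ± 2.65, 7.767 ± 1.69 and 2.367 ± 1.4 (SD, n = 3) made it 7.27-fold lower at 3 days and 23.9-fold lower at 5 days, with log2 differences of -2.73 ± 0.38 and -4.19 ± 0.38 (SE). These rest on 298 reads in monoculture, 23 at 3 days and 7 at 5 days. The further step between the days was 3.28-fold (-1.46 ± 0.38), and it lay between -1.75 and -1.10 with each library left out in turn.

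Cyp26b1, which clears retinoic acid (chromosome 6, 84571414 to 84593908, minus strand), did not separate the groups. Its counts were 34.7, 13.9 and 19.9 in monoculture, 18.3, 15.3 and 15.3 at 3 days, and 9.9, 21.4 and 13.7 at 5 days. Each pair of groups overlapped, and the highest value came from monoculture replicate 1. The log2 differences from monoculture were -0.37 ± 0.37 (95% interval -1.15 to 0.40) and -0.54 ± 0.37 (-1.32 to 0.23), so that a 2-fold lower level lies inside both intervals.

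Rarb (chromosome 14, 16430839 to 16819156, minus strand) was the receptor whose co-culture libraries stood apart from the monocultures. It measured 3.7, 3.8 and 7.7 in monoculture, 46.5, 41.1 and 23.7 at 3 days, and 23.4, 11.2 and 25 at 5 days. Every co-culture library was above every monoculture, and the 2 co-culture times overlapped, with the highest values at 3 days. Means were 5.067 ± 2.28, 37.1 ± 11.9 and 19.87 ± 7.55 (SD, n = 3), from 26, 104 and 58 reads, so the level was 7.32 times that of monoculture at 3 days and 3.92 times at 5 days. The log2 differences were 2.66 ± 0.39 and 1.77 ± 0.39 (SE), with -0.89 ± 0.39 between the days. The 3′ end of Rarb overlaps that of Top2b on the opposite strand, over 4624 bases (chromosome 14, 16430839 to 16435462). The strand setting of the counting is not given in the sources used here, so reads from that stretch cannot be told apart. Top2b, a DNA topoisomerase, measured 67.7 ± 13.1, 51.3 ± 13.4 and 54.4 ± 4.54 in the 3 groups and did not pass in either co-culture (limma adjusted p = 0.26 and 0.41).

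Rara (chromosome 11, 98927818 to 98974942, plus strand) and Rarg (chromosome 15, 102234938 to 102257517, minus strand), the other retinoic acid receptors, overlapped between all groups. Rara measured 79.8, 70.2 and 46.9 in monoculture, 49.8, 64.7 and 40.3 at 3 days, and 80.9, 43.8 and 62.4 at 5 days. Its log2 differences from monoculture were -0.33 ± 0.28 (95% interval -0.92 to 0.25) and -0.08 ± 0.28 (-0.67 to 0.51). Rarg measured 112, 73.5 and 55.3 in monoculture, 112.9, 57.1 and 57 at 3 days, and 62.9, 43.8 and 48.7 at 5 days. Replicate 1 was the highest for Rarg in each group. Its differences were -0.10 ± 0.30 (-0.74 to 0.53) and -0.58 ± 0.30 (-1.21 to 0.06). A 2-fold higher level lay outside all 4 intervals of Rara and Rarg, and a 2-fold lower level lay inside only that of Rarg at 5 days.

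**Figure D3:**
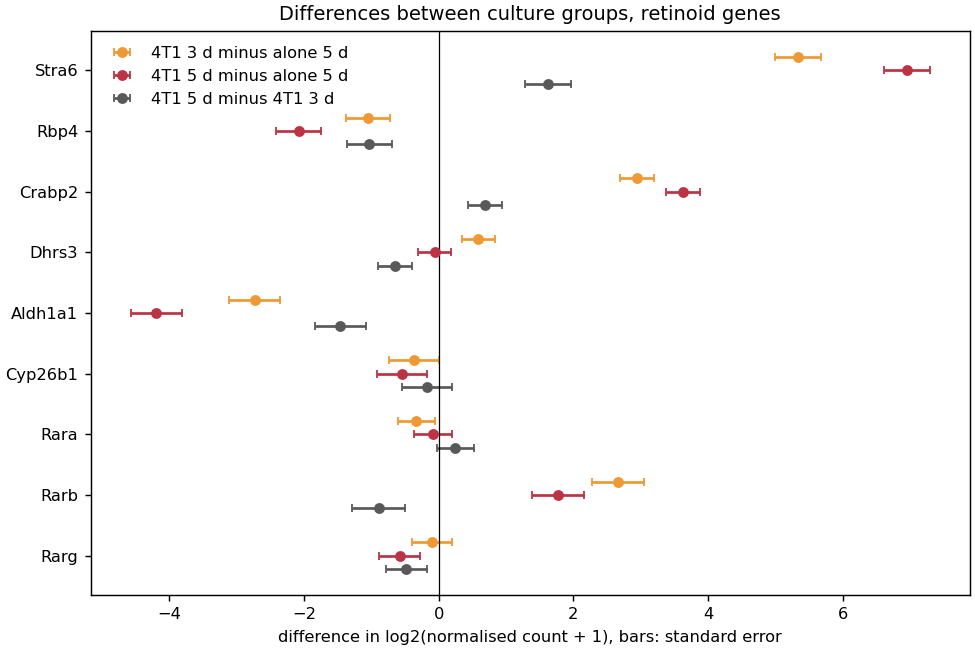
Differences in log2(normalised count + 1) between culture groups for the 9 retinoid genes (points, with bars for 1 SE of the model over 9 libraries). Stra6 reached 6.95 and Aldh1a1 -4.19 at 5 days, whereas Cyp26b1, Rara and Rarg stayed within 0.6 of 0 in all 3 comparisons.

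Genes with the nearest pattern were sought among 7369 genes with a mean of at least 20, for the 5 retinoid genes whose group means spanned at least 1 on the log2 scale. Likeness was the root mean square difference of centred log2 values over the 9 libraries. Nearest to Stra6 were Tnfsf15 (0.607), Gpa33 (0.79) and Acsbg1 (0.871), and Gpa33 was listed at 0 in all 3 monocultures. Crabp2 had Oasl1 (0.267), Rph3a (0.374) and Pgf (0.392) as neighbours. Nearest to Rarb stood Lif (0.394), Cd80 (0.406) and Lrrc8c (0.409), and the mean of Lif, a cytokine, was 326.7, 1694.6 and 1074.3 in monoculture and at 3 and 5 days. Rbp4 lay closest to Osmr (0.254), the collagen gene Col3a1 (0.267) and Uhrf2 (0.276). Around Aldh1a1 were Nsg1 (0.249), Svep1 (0.3) and Atoh8 (0.366).

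Other genes of retinoid uptake, metabolism and action were described from a list of 65 symbols, of which 37 had a row in the table and were tested. In 3-day co-culture 7 rose and 6 fell, 35.1% of the 37, with a median difference of 0.29 against 0.00 over all genes. In 5-day co-culture 8 rose and 5 fell, again 35.1%, with a median of -0.09 against -0.01. Between the days 3 passed, Crabp1, Rdh12 and Dhrs9, although no 5-day library of the last 2 reached the filter value of 5. All 3 were lower at 5 days, with a median of -0.02 over the list. The split was 2 higher and 1 lower with a pseudocount of 5, 1 higher and 2 lower with quantile normalization or without monoculture replicate 1, and 1 each way with only the compared groups. That count was 1 without monoculture replicate 2 or 3, without 3-day replicate 1 or 2, and without any of the 5-day libraries. These shares stand beside 20.0%, 24.0% and 6.91% of all genes. The list was chosen with earlier results of these data known, so the shares are a description. The count of 13 at 3 days was 8 without monoculture replicate 1 or 3-day replicate 2, and the 13 at 5 days was 7 without 5-day replicate 1 and 8 without 5-day replicate 2. By role, uptake and carrier genes made up 6 of the 13 calls at 3 days and 5 of the 13 at 5 days. Of this role 6 genes were tested. Of 3 tested genes of ester storage, 0 passed at either time by limma, edgeR or DESeq2, or at an unadjusted p under 0.05. Where 20.0% and 24.0% of all genes passed, a count of 0 of 3 cannot set this role apart. Among the 3, Lipe was lower without overlap at both times (21.17 in monoculture, 12.3 at 3 days and 13.03 at 5 days). Pnpla2 was higher without overlap at 3 days only, and Dgat1 overlapped at both times. Of 12 coregulators, 0 passed at 3 days by any of the 3 tools (1 at an unadjusted p under 0.05), and Nrip1 passed at 5 days.

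**Figure D4:**
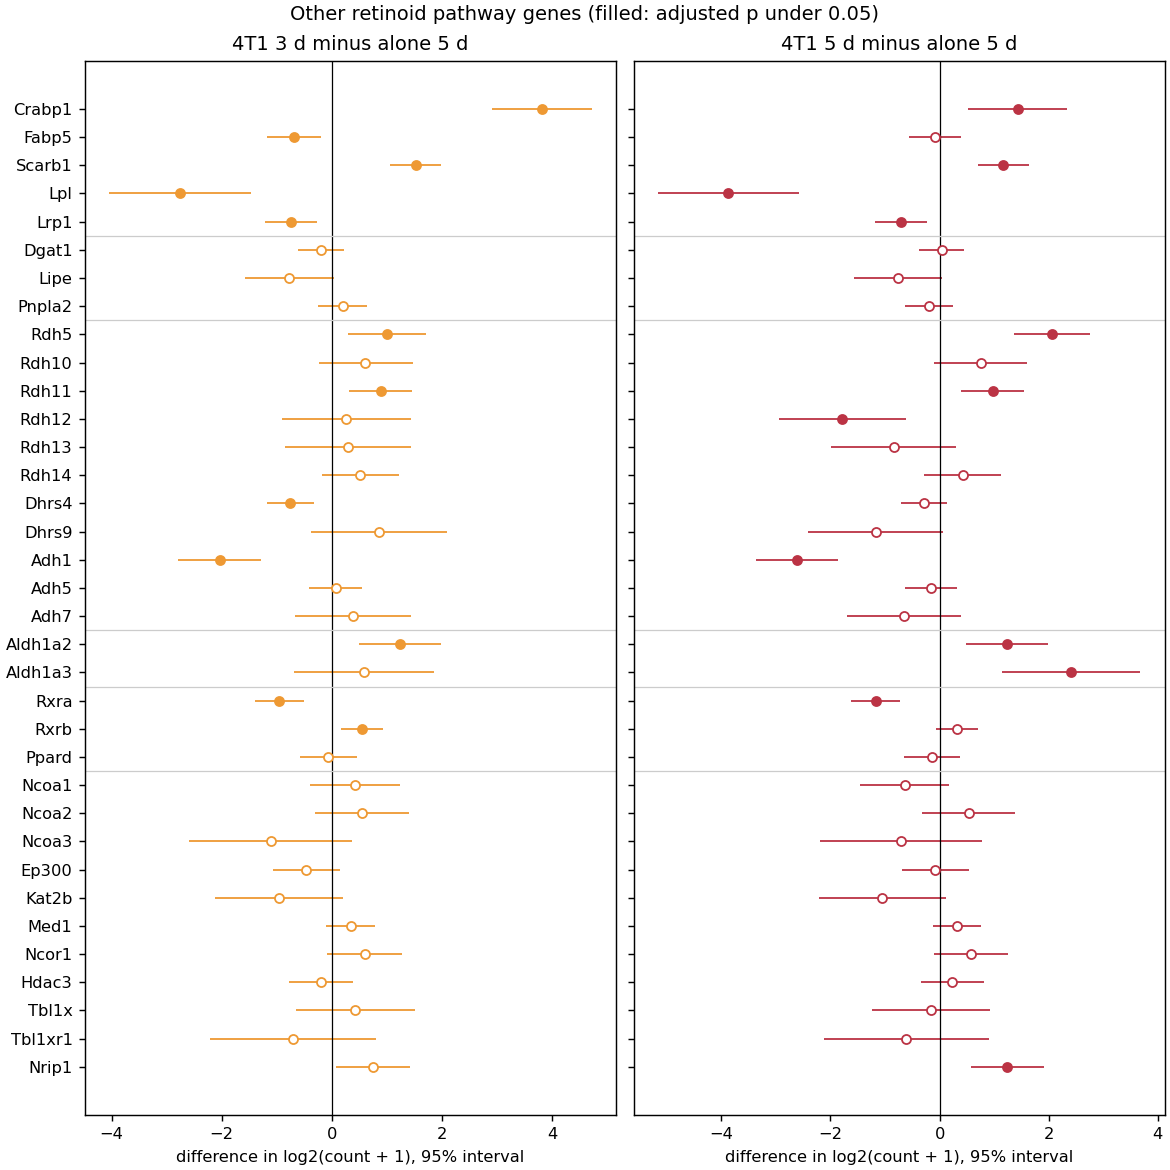
Differences in log2(normalised count + 1) from monoculture for other tested genes of the retinoid pathway at 3 and 5 days of co-culture, grouped by role. Genes that passed the limma test lie on both sides of 0, with Crabp1 (3.82 at 3 days) and Lpl (-3.87 at 5 days) farthest out.

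Among the carriers, Crabp1, a cytosolic binder of retinoic acid, rose at 3 days and was much lower again at 5 days. Its counts were 22.3, 19.2 and 100.3 in monoculture, 451.7, 523.5 and 562.1 at 3 days, and 71, 109.9 and 114.9 at 5 days. The 3-day libraries stood far above all others, and monoculture replicate 3 lay inside the 5-day range. By limma the difference was 3.82 ± 0.43 at 3 days (adjusted p = 1.2e-05) and -2.39 ± 0.43 from 3 to 5 days (0.0032). At 5 days it was 1.43 ± 0.43 (adjusted p = 0.023), which passed in 14 of 20 alternatives, did not pass by DESeq2 (0.25) and was 2.17 without monoculture replicate 3. Scarb1, a scavenger receptor that takes up carotenoids and lipids, rose from 47.3 ± 10.1 to 136.7 ± 18.9 and 107.0 ± 16.9 (adjusted p = 0.00014 and 0.001).

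Lpl, the lipoprotein lipase that helps cells take up retinyl esters, fell from 116.7 ± 74.4 to 18.3 ± 16.7 and 7.667 ± 5.95 (limma differences -2.75 and -3.87, adjusted p = 0.0043 and 0.00022). Lpl is also an adipocyte gene. The summed level of the 3 adipocyte markers with a row, of 8 listed, lay between 122.0 and 179.3 in monoculture, 23.3 and 33.4 at 3 days and 20.5 and 32.4 at 5 days, with Fabp4 and Pparg falling, and its part in the level of Lpl or Rbp4 was not tested. Lrp1, a receptor for lipoprotein remnants, fell by 0.74 and 0.71 (adjusted p = 0.03 and 0.031), each kept in 16 of 20 alternatives. Fabp5, a fatty acid binder that also binds retinoic acid, fell at 3 days (-0.68, limma adjusted p = 0.046), a call kept in 12 of 20 alternatives.

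Enzymes that oxidise retinol moved in both directions. Adh1, an alcohol dehydrogenase that oxidises retinol, measured 53.2, 65.9 and 36.6 in monoculture, 13.3, 13.9 and 8.3 at 3 days, and 11.7, 5.6 and 6.2 at 5 days. All co-culture libraries lay below all monocultures, with limma differences of -2.03 ± 0.35 and -2.61 ± 0.35 (adjusted p = 0.00068 and 5.2e-05). Rdh5, a retinol dehydrogenase, rose from 7.233 ± 2.3 to 15.33 ± 3.61 and 32.83 ± 6.46 (1.00 and 2.06, adjusted p = 0.042 and 0.00026), and the first of these calls was kept in 9 of 19 alternatives. Rdh5 overlaps Bloc1s1 on the same strand over 5007 bases, so counting could split or lose reads there, and Bloc1s1 measured 500.5 ± 53.7, 393.0 ± 37.8 and 503.8 ± 56.1. Rdh11, a retinal reductase, rose by 0.89 and 0.98 (limma adjusted p = 0.03 and 0.015), calls kept in 15 and 17 of 20 alternatives. Dhrs4 fell from 133.1 ± 11.8 to 79.6 ± 16.8 at 3 days (-0.75, adjusted p = 0.015), a call kept in 17 of 20 alternatives. Rdh12 and Dhrs9 were lower at 5 than at 3 days (-2.04 and -2.03), both with group means under 6. Rdh12 was also lower at 5 days than in monoculture (-1.78), a call kept in 12 of 16 alternatives and lost by DESeq2. Both genes passed the filter on low values only through monoculture and 3-day libraries. Their differences at 5 days are therefore descriptions, although they are counted among the genes that passed. The calls between the days were kept in 9 of 15 alternatives for Rdh12 and in 1 of 15 for Dhrs9. Outside the 9 retinoid genes, Adh5 was the highest of the listed enzymes that did not pass, at 252.9, 272.0 and 233.9.

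Of the other retinaldehyde dehydrogenases, Aldh1a2 rose at both times, when Aldh1a1 was lower. Aldh1a2 measured 31.6, 29.8 and 34.7 in monoculture, 146.1, 41.1 and 75.1 at 3 days, and 107.8, 64.3 and 64.9 at 5 days. No co-culture library overlapped with monoculture, and replicate 1 was the highest at both times. The limma difference was 1.24 ± 0.35 at each time (adjusted p = 0.02 and 0.017). At 3 days it did not pass without 3-day replicate 1 (0.78, adjusted p = 0.088) or monoculture replicate 2, and at 5 days it did not pass without 5-day replicate 1 (adjusted p = 0.087). Aldh1a3, low throughout, measured 0, 1.4 and 3.9 in monoculture, 3.3, 1.4 and 2.8 at 3 days, and 11.7, 6.5 and 17.5 at 5 days. The 5-day libraries lay above all others, but Aldh1a3 passed the filter on low values only through those 3 libraries, so its difference of 2.41 ± 0.60 is a description, although it is counted among the 8 that rose.

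**Figure D5:**
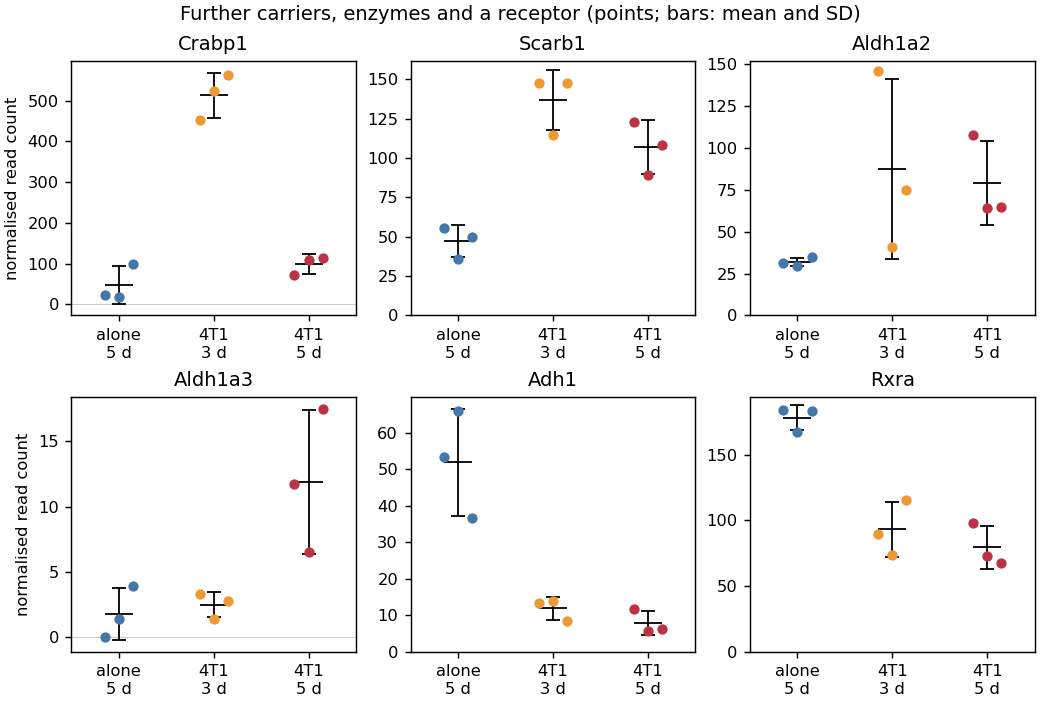
Normalised read counts of Crabp1, Scarb1, Aldh1a2, Aldh1a3, Adh1 and Rxra in each of the 9 libraries (points), with the mean and SD of each group of 3 (bars). Crabp1 lay between 451.7 and 562.1 at 3 days and at or below 114.9 elsewhere, and Rxra lay at or above 167.3 in monoculture and at or below 115.5 in co-culture.

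Of the retinoid X receptors, the partners of Rara, Rarb and Rarg, Rxra fell at both times and Rxrb rose at 3 days. Rxra measured 183.8, 167.3 and 183.2 in monoculture, 89.7, 73.8 and 115.5 at 3 days, and 97.9, 72.6 and 67.4 at 5 days. The monocultures lay above every co-culture library, with limma differences of -0.95 ± 0.21 and -1.17 ± 0.21 (adjusted p = 0.0047 and 0.00076). Rxrb went from 84.7 ± 3.65 to 124.4 ± 2.82 at 3 days (0.55, adjusted p = 0.041, kept in 12 of 20 alternatives), and at 5 days it measured 105.9 ± 10.3 (0.32, adjusted p = 0.23). Nrip1, a corepressor and itself a retinoic acid target, rose at 5 days (1.24, adjusted p = 0.0092, kept in 17 of 20 alternatives), from 47.7 to 116.8. Fabp5, Lrp1, Rxrb, Rdh12, Dhrs9, Aldh1a3, Rdh5 and Rdh11 at 3 days, and Crabp1 and Aldh1a2 at 5 days, lie outside the naming rule and were named after their values were seen.

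A list of 40 genes known as retinoic acid targets in various cells, of which 28 were tested, was read beside the receptors. At 3 days 3 rose and 6 fell (32.1%, against 20.0% of all genes), with a median of -0.15. At 5 days 9 rose and 6 fell (53.6%, against 24.0%), with a median of 0.13, and between the days 2 rose and 1 fell (10.7%, against 6.91%). This list too was chosen with earlier results of these data known, so its shares are a description. Nrip1 is also in the pathway list, and the lists are not independent. Tgm2, a transglutaminase long used as a retinoic acid response gene, rose from 106.4 ± 13.5 to 195.3 ± 13.6 and 186.8 ± 17.9 (0.87 and 0.81, limma adjusted p = 0.0023 and 0.0034). Rai14, named for its induction by retinoic acid, rose by 0.82 and 0.84 (adjusted p = 0.011 and 0.0079), the first of which did not pass without monoculture replicate 1. Igfbp3, a binder of insulin-like growth factors, fell from 423.5 to 142.0 and 104.6 (-1.54 and -2.02, adjusted p = 0.00091 and 5.5e-05). Its relative Igfbp6 fell by 0.81 and 1.23, and Pmp22, a membrane protein gene, by 1.09 and 1.57. Zfp36, which encodes an mRNA decay factor, fell from 561.4 to 100.1 and 63.37 (adjusted p = 1e-06 and 4.7e-08). Sox9, a transcription factor gene, fell from 19.63 to 7.467 and 6.267 (adjusted p = 0.022 and 0.0098). The 3-day call on Sox9 was kept in 14 of 19 alternatives, being lost by DESeq2 and without monoculture replicate 1 or 2 or 3-day replicate 1 or 3, and the 5-day call was lost without monoculture replicate 2.

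Some targets differed between 5 and 3 days of co-culture. Plat, tissue plasminogen activator, measured 301.4, 297.1 and 303.4 in monoculture, 275.7, 252.7 and 240.7 at 3 days, and 540.9, 467.6 and 551.8 at 5 days. It passed at 5 days against monoculture (0.78, limma adjusted p = 0.0019) and against 3 days (1.02, adjusted p = 0.0012). Egr1, an immediate early transcription factor gene, fell at both times (-0.68 and -1.74, adjusted p = 0.028 and 1.3e-05; the first was kept in 17 of 20 alternatives), and from 3 to 5 days it fell from 1098.2 to 522.4 (-1.06, adjusted p = 0.0058). The target list held 8 tested Hox genes, regulators of body patterning that respond to retinoic acid in embryos. At 3 days 0 passed by limma, edgeR or DESeq2 (1 at an unadjusted p under 0.05). Where 20.0% of all genes passed, 0 of 8 cannot set them apart at that time. At 5 days 4 rose, where 12.6% of all genes rose. Hoxa4 measured 5.6, 9.6 and 11.6 in monoculture, 6.6, 7 and 7 at 3 days, and 21.6, 25.1 and 25 at 5 days (1.37 against monoculture, limma adjusted p = 0.0083, and 1.66 against 3 days, 0.0084). The other 3 were Hoxa3 (1.20, adjusted p = 0.035), Hoxa5 (0.94, 0.015) and Hoxb2 (0.77, 0.027), named after their values were seen. The call was lost for Hoxa3 without monoculture replicate 1 or 3 or 5-day replicate 2 or 3, for Hoxb2 without monoculture replicate 3 or 5-day replicate 2 or 3, and for Hoxa5 without monoculture replicate 1. Hoxb5, also named afterwards, was at -1.25 and did not pass (0.058). The highest targets that did not pass against monoculture were Rarres2, a chemoattractant gene (2740.3, 3126.8 and 1868.2), Col4a1 and Lamb1.

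Of the cell type markers, those of fibroblasts had the largest sums, with all 12 listed genes in the table and sums between 46226.6 and 63829.4 in monoculture, 44399.4 and 55637.3 at 3 days and 39564.0 and 53753.9 at 5 days. Col1a1 and Col1a2, collagen I genes, make up the largest share of these sums. By limma 5 of the 12 fell at 3 days, and at 5 days 6 fell and 1 rose (Vim), with medians of -0.12 and -1.36. Of all genes, 9.37% fell at 3 days, and 11.4% fell and 12.6% rose at 5 days. Col1a1, Col1a2, Lum, Fap and Pdpn did not pass at either time. Fap measured 29.53, 35.2 and 30.7 in monoculture and at 3 and 5 days. Pdpn, the gene of the sorting protein, measured 214.9, 294.6 and 275.3. Pdgfra, a growth factor receptor gene of fibroblasts, fell from 189.3 to 51.67 and 20.97, Thy1 from 2587.5 to 1544.7 and 930.9, and S100a4 from 3605.2 to 744.0 and 475.8. Vim, Lum, Fap, Pdpn, Pdgfra, Thy1 and S100a4 were named after their values were seen. The macrophage sum was 96.5 to 266.4, 122.9 to 351.6 and 67.3 to 150, from 6 of 9 listed genes, without a group apart from the others. Of its 5 tested genes 0 passed at 3 days, 1 at 5 days and 1 between the days. Of all genes, 20.0%, 24.0% and 6.91% passed, so counts out of 5 cannot set this list apart. The gene that passed was Csf1r, also named after its values were seen. Csf1r measured 17.1 in monoculture, 19.1 at 3 days and 6.433 at 5 days. It was lower at 5 days than in monoculture (limma adjusted p = 0.012) and than at 3 days (0.022). The endothelial sum, from 2 of 8 listed genes, was 25.5 to 28.3, 34.7 to 41.7 and 27.0 to 30.7, and like the mean of Rarb it was highest at 3 days. The part of these cells in the retinoid genes was not tested.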

How the data were processed

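Messenger RNA 3′ ends were sequenced in 9 libraries, 3 per group. The tools, per the submitters' processing notes, were bcl2fastq, STAR 2.4.2a and HTSeq, with mm10; the annotation, strand setting and normalisation are not given in the sources used here. The authors deposited normalised counts, a signal on a count scale. Low values were multiples of what 1 read is worth, so whole reads were recovered (between 99.98% and 100.0% of values whole, tolerance 0.051).

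The members and gene lists were chosen with earlier results of these data known. The test was limma 3.58.1 in R 4.3.3 (trend) on log2(value + 1), two-sided, Benjamini-Hochberg adjusted over 10639 genes that reached 5 in 3 or more libraries, 1292 being left out; the threshold was an adjusted p of 0.05. All 9 libraries entered 1 fit. Alternatives were other pseudocounts, filters and scalings, a replicate block, only the compared groups, count tests by edgeR 4.0.16 and DESeq2 1.42.0 after recovery of reads, and each library left out. From each list and comparison, up to 8 called genes by adjusted p with a mean of at least 10, and up to 3 of the highest not called, were named; some of these are not reported here. Scripts were tested on simulated data. Positions are from GENCODE M21 on mm10, and promoters from RefSeq. Without molecular identifiers, reads may be copies of a molecule, so counting intervals cover counting error only.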

Additional observations from a re-analysis of the deposited data

Results flagged for a closer look

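For 6 genes of the lists the difference from the shared monocultures was not the same at 5 as at 3 days of co-culture, by the limma contrast of the days itself. Crabp1, the retinoic acid carrier, differed by -2.39 (adjusted p = 0.0032), Plat, tissue plasminogen activator, by 1.02 (adjusted p = 0.0012), Egr1, an early response factor gene, by -1.06 (adjusted p = 0.0058), and Hoxa4, a patterning gene, by 1.66 (adjusted p = 0.0084), all by limma. The retinol dehydrogenase gene Rdh12 (-2.04) and Dhrs9 (-2.03) were low in every group, and their calls were kept in 9 and 1 of 15 alternatives. Both passed the filter on low values without a 5-day library, so these 2 differences are descriptions. In all 6 genes no 5-day library overlapped with a 3-day library, where 24.6% of all genes did not overlap. The 6 were picked by this same contrast, so the lack of overlap adds no support. Groups of 3 libraries were too small for a test of single outlying samples.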

How the results depend on the processing

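No difference that passed changed direction. The counts over the 9 retinoid genes, which were chosen on these values, support nothing and are given only for completeness. Between days that count was 1 with a pseudocount of 5, with only the compared groups, by edgeR and by DESeq2; that of the pathway list was 1 with a mean of at least 20 and by DESeq2. With each library left out, genes called ranged from 1487 to 2118 at 3 days, 1875 to 2744 at 5 days and 311 to 749 between days, where 735 were called with all; it was 311 without 3-day replicate 2 and 439, 423 and 450 without 5-day replicates 1, 2 and 3. On recovered reads edgeR called 2239, 2736 and 677 genes and DESeq2 2049, 2550 and 738, beside 2129, 2552 and 735 by limma. Retinoid genes ranged from 4 to 6, 5 to 5 and 1 to 3, pathway genes from 8 to 13, 7 to 13 and 1 to 3, and targets from 7 to 9, 12 to 16 and 3 to 4. Pathway calls held under every alternative that gave the gene an adjusted p numbered 6, 7 and 1. The 7 include Rdh5 and Aldh1a3, for which only 19 and 16 of the 20 alternatives gave one. Stra6 at 3 days was 5.96 and 3.55 with pseudocounts of 0.5 and 5, 6.52 by edgeR and 6.75 by DESeq2; at 5 days it was 7.59, 5.11, 8.12 and 8.36. With a pseudocount of 5, Aldh1a1 was -2.28, -3.08 and -0.80 in the 3 comparisons and Rarb 2.04 at 3 days. By arithmetic, a larger pseudocount shrinks log2 differences that involve low values. The cause of the shifts by edgeR and DESeq2 was not tested.

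With a replicate block, 2219, 2663 and 827 genes, 13, 13 and 2 pathway genes, 6, 5 and 3 retinoid genes (Dhrs3 added) and 10, 16 and 4 targets passed. Same-numbered libraries correlated between -0.11 and 0.23 in their deviations, and differently numbered ones between -0.3 and 0.32. With 3 libraries per group these values cannot tell whether the numbers pair the samples. Depth limits Stra6 in monoculture (3 reads) and Aldh1a1 at 5 days (7 reads).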
